A study of Mus musculus with 8 samples.

Results

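The 6 acyl-CoA thioesterase genes Acot1 to Acot6 lie side by side on mouse chromosome 12, between 83987861 and 84109783 on mm10, a span of 122 kb. The chromatin regions described here are the consensus regions of open chromatin whose nearest protein-coding gene, by distance to the gene's span and within 100 kb, is one of these genes. They number 21 of 49587 consensus regions. ATAC-seq, an assay that tags accessible DNA with a transposase, was applied to flash-frozen livers of male C57BL/6 mice aged 9 weeks that had fasted for 24 h. The 8 libraries fall into 4 genotypes of 2 libraries each: wild type (WT), liver knockout of Cpt2 (Cpt2 L-/-), knockout of Ppara (Ppara -/-), and the double knockout (Cpt2 L-/- ; Ppara -/-), in which the Ppara deletion is whole-body per the labels. The Cre driver of the liver deletion, any floxed alleles in the controls, and whether the replicates are separate mice are not given in the sources used here, so the spread between replicates may be technical. Wild type and Cpt2 knockout are called Ppara-intact below, and Ppara knockout and double knockout Ppara-null.

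Acyl-CoA thioesterases cleave an acyl-CoA into a free acid and coenzyme A, and so set how much of each is at hand in a compartment of the cell. The enzymes of this cluster are close relatives that differ in location. Acot1 is cytosolic, Acot2 is mitochondrial, and Acot3, Acot4, Acot5 and Acot6 are peroxisomal. Several of the genes are known to be induced in liver by fasting and by ligands of PPARα, the fatty-acid-activated nuclear receptor encoded by Ppara. Cpt2 encodes a carnitine palmitoyltransferase of the inner mitochondrial membrane that long-chain fatty acids need to enter β-oxidation.

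The sequences just upstream of the starts of Acot2, Acot1 and Acot4 are shown because the 3 start regions behaved differently: that of Acot1 had no peak in any Ppara-null library, that of Acot2 had one in 3, and that of Acot4 in 2. They are the 250 bases before each RefSeq start on GRCm38.p6, the assembly of mm10, on the plus strand, at chr12:83987611-83987860, chr12:84009252-84009501 and chr12:84038129-84038378. Capitals mark a match to a direct repeat of the nuclear receptor motif with a spacer of 1 base.
Acot2: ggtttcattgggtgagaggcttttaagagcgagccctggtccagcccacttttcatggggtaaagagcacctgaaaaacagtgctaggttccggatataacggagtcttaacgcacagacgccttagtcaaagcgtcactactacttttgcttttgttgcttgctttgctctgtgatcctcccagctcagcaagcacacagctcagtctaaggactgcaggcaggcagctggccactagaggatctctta
Acot1: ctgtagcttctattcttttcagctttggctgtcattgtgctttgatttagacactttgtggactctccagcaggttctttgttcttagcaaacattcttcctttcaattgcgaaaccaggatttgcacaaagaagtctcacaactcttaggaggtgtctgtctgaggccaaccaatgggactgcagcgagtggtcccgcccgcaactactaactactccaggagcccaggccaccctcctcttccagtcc
Acot4: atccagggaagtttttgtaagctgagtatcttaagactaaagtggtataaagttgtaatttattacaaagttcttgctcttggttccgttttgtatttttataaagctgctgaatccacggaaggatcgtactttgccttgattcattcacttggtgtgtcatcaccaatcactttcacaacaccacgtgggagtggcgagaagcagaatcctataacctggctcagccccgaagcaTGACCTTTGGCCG

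The motif searched was a direct repeat, AGGTCA followed by any base (N) and by AGGTCA again, on both strands of 300-base windows, 250 before to 50 after each start, with at most 2 mismatches outside the N. A start was listed for 5 of the 6 genes. For Acot4 and Acot5 it lies inside the gene's span, at 84038379 and 84069324, while the spans begin at 84037254 and 84069077. Distances from a gene are measured from its span below, and distances from a start from the listed start. Acot4 had the only match among these 5 windows, on the minus strand and with 2 mismatches, from -13 to -1 of the start (chromosome 12, 84038366 to 84038378). Such a match was present in 3.86% of 32807 promoter windows. The shorter motif AGGTCA, which is part of the longer one, occurred once in the windows of Acot4 and Acot3 and at 2 places in that of Acot5, and was present in 16.3% of all windows. A match is a description of these letters and says nothing about binding. The 5 upstream sequences were 42.9% to 50.7% identical to each other by global alignment, within the 38.1% to 53.2% found between them and the upstream sequences of other genes on chromosome 12.

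Each library has its own deposited peak list, and a region is termed called there if at least 1 bp of it lies under one of these peaks. Of the 21 regions, 11 touched a gene of the cluster and 10 lay outside genes, at most 5990 bp away. Wild type libraries called 14 and 16 of the 21 regions, and Cpt2 knockout libraries called 18 and 16. Ppara knockout libraries called 6 and 1, and double knockout libraries called 3 and 1. No Ppara-null library reached the lowest Ppara-intact library. The mean was 15 ± 1.41 regions (SD, n = 2) in wild type, 17 ± 1.41 (SD, n = 2) in Cpt2 knockout, 3.5 ± 3.54 (SD, n = 2) in Ppara knockout and 2 ± 1.41 (SD, n = 2) in double knockout. Peaks in the cluster covered 4973 and 6132 bp in wild type, 6820 and 6238 bp in Cpt2 knockout, 1422 and 200 bp in Ppara knockout, and 1040 and 200 bp in double knockout. The peaks of the whole lists were also shorter in total without Ppara. They summed to 12.3 and 15.49 Mb in wild type and 16.25 and 15.74 Mb in Cpt2 knockout. In Ppara knockout they summed to 7.473 and 7.025 Mb, and in double knockout to 8.787 and 6.618 Mb.

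**Figure D1:**
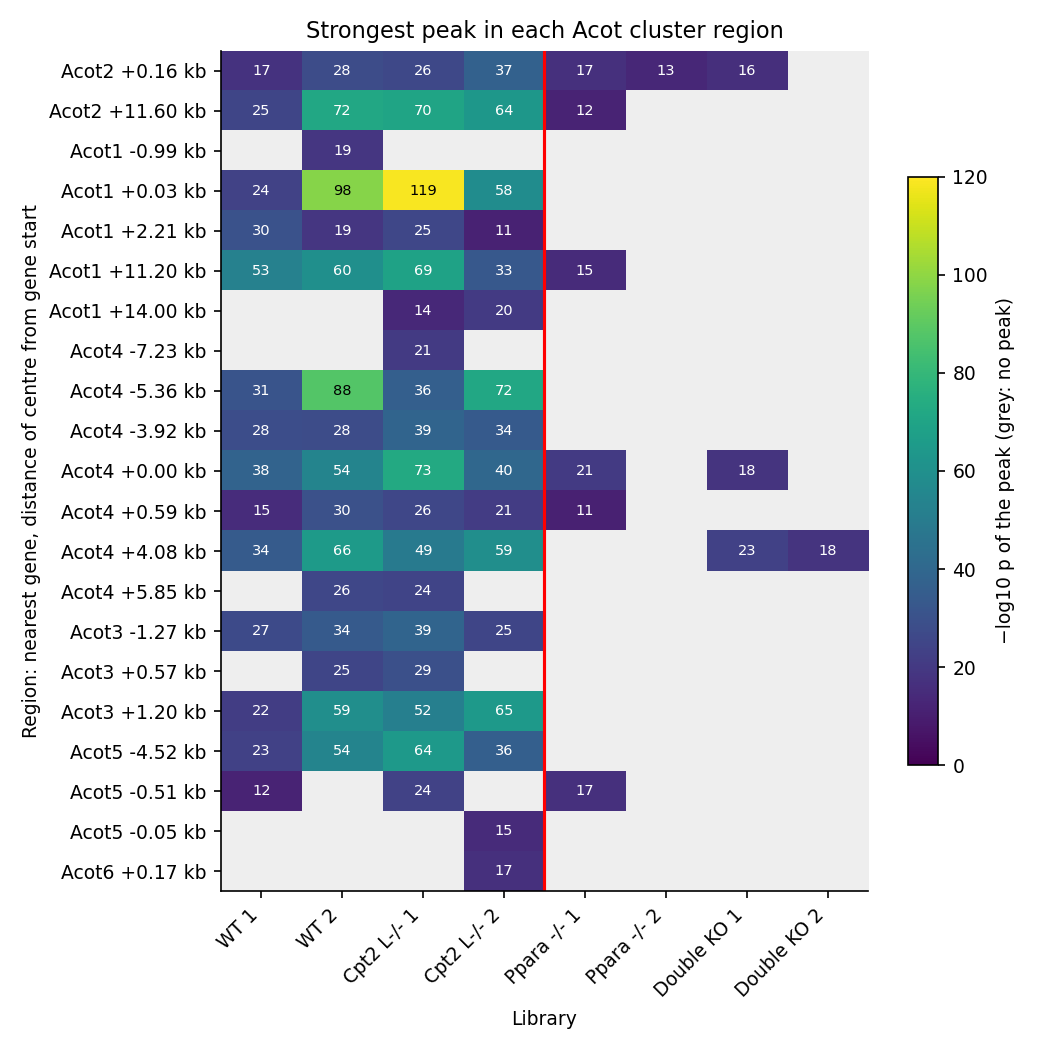
Strongest peak overlapping each of the 21 regions (rows, named by nearest gene and by the distance of the region's centre from that gene's start in kb) in each of the 8 libraries (columns). Colour and printed value are the deposited −log10 p, grey means no peak, and the red line parts Ppara-intact from Ppara-null libraries. The 4 libraries on the left hold 64 of the 75 values.

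The lists of the Ppara-null libraries were shorter as a whole, so the cluster was read against all regions. Of all consensus regions, Ppara-intact libraries called 69.4% ± 8.87 (SD, n = 4) and Ppara-null libraries 38.9% ± 4.27 (SD, n = 4). For the cluster the shares were 76.2% ± 7.77 and 13.1% ± 11.3 (SD, n = 4 each). When every list was limited to its strongest 18132 peaks by −log10 p, the length of the shortest list, each library called 35.3% to 36.4% of all regions. In these equal-number lists the cluster had 10 and 8 called regions in wild type, 9 and 10 in Cpt2 knockout, 4 and 1 in Ppara knockout, and 3 and 1 in double knockout. The groups by Ppara status thus did not overlap with either kind of list, while Ppara-null minus Ppara-intact means went from -13.25 to -7 regions. No p is given for such counts, because the genes were chosen with results of these data known.

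**Figure D2:**
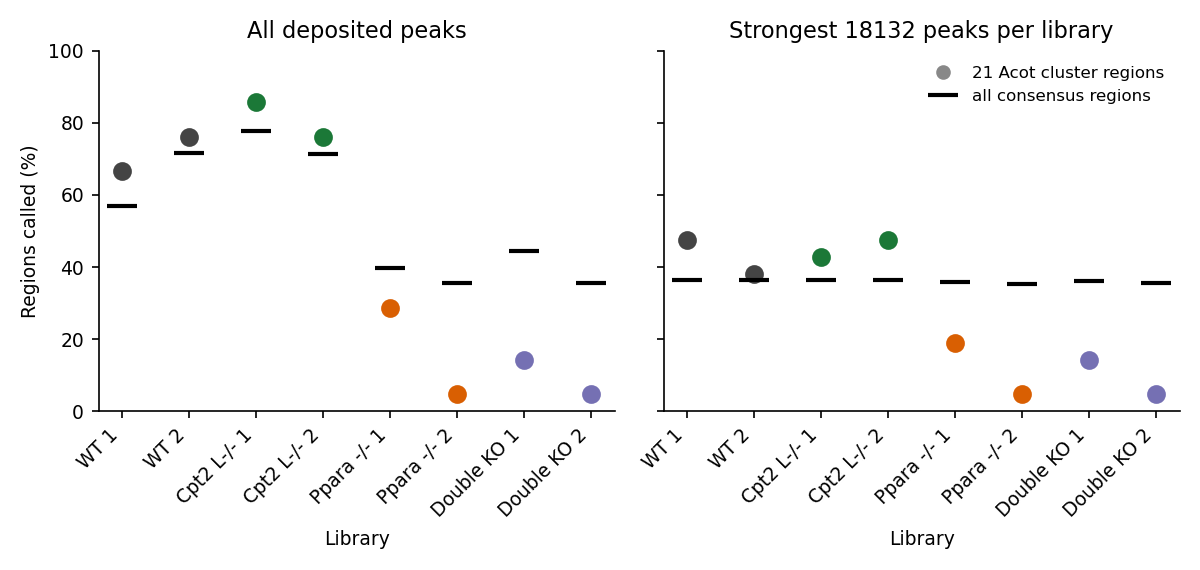
Share of the 21 cluster regions (points, coloured by genotype) and of all consensus regions (black bars) called in each library, in percent, with all deposited peaks (left) and with the strongest 18132 peaks of each library (right). In both panels the 4 Ppara-intact points lie above, and the 4 Ppara-null points below, the bar of their own library.

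A region with a peak in each of the 4 Ppara-intact libraries and with none in the 4 Ppara-null libraries is termed intact-only. The cluster held 7 intact-only regions of 21 (33.3%), against 6.82% of all consensus regions. The opposite pattern was met by 0 of the 21 and by 0.0686% of all regions. In equal-number lists the intact-only regions were 3 of 21 (14.3%), against 0.811% of all. Those 3 were the Acot1 start region, the region 4.52 kb upstream of the Acot5 start, and the region 11.6 kb downstream of the Acot2 start. With all peaks, the last of these was also called in Ppara knockout 1. No region of the cluster was called in all 8 libraries, a pattern shown by 22.7% of all regions. A peak in every one of the 4 Ppara-intact libraries was found at 13 of the 21 (61.9%; 48.5% of all regions), and 14 had no peak in any Ppara-null library (66.7%; 42.3% of all regions). A call in a single library was made for 4 of the 21 (19.0%; 23.0% of all regions). Peak names carry a number for each library, 441, 443, 446 or 4717 where Ppara was intact and 6831 to 6834 where it was deleted. What it marks is not stated in the files. If it is a batch, it cannot be told apart from the loss of Ppara.

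The intact-only regions were spread over Acot1 (2 of its 5 regions), Acot4 (2 of 7), Acot3 (2 of 3) and Acot5 (1 of 3), with none at Acot2 or Acot6. Of the 7, 3 touched a gene and 4 lay outside genes. A window of the cluster's length centred on each of 21887 protein-coding genes held a median of 0 intact-only regions and a 95th percentile of 2. A count of 7 or more was reached by 5 windows, of which 3 were centred on Acot1, Acot4 and Acot3 themselves and the other two on Cyp4a10 and Cyp4a31, fatty acid ω-hydroxylases of another gene cluster. For consensus regions of any kind, the cluster's 21 compared with a median of 4 per window and a 95th percentile of 14.

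**Figure D3:**
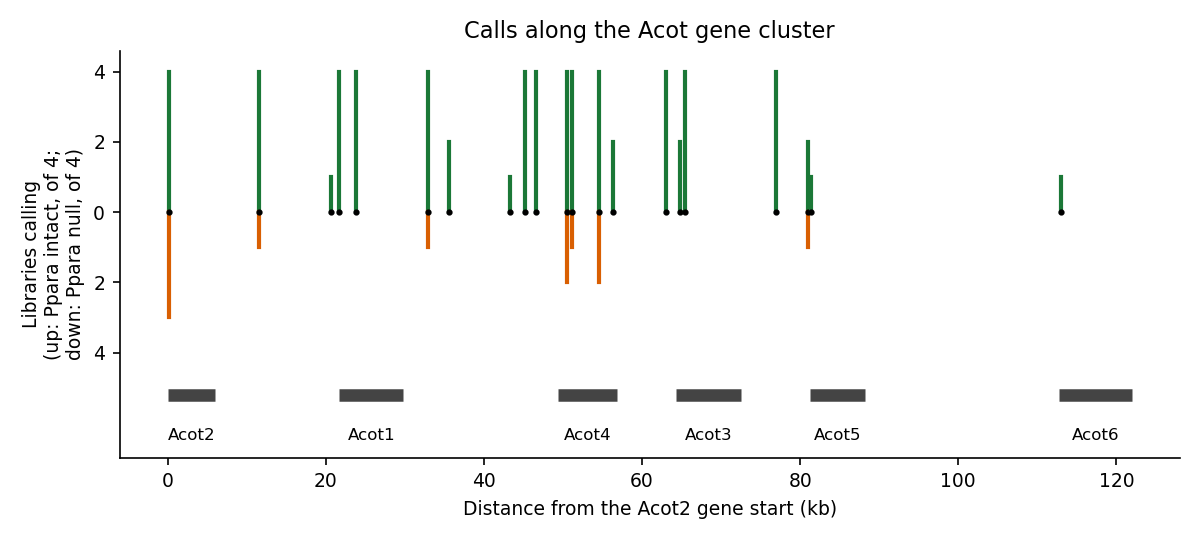
Number of libraries calling each of the 21 regions along the cluster, against the distance from the Acot2 start in kb. Bars upward count Ppara-intact libraries (green, of 4), bars downward Ppara-null libraries (orange, of 4), and grey boxes are gene spans. The 7 intact-only regions are the full-height green bars without an orange one, from the Acot1 start to upstream of Acot5.

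At the mitochondrial enzyme gene Acot2 (gene ID 171210, 83987861 to 83993877), the start region at 83987500 to 83988550 kept calls without Ppara. Its strongest peak had a −log10 p of 17.4 and 28.04 in wild type, 25.9 and 37.4 in Cpt2 knockout, 16.65 and 13.3 in Ppara knockout and 16.3 in double knockout 1, and double knockout 2 had no peak. These were 7 of 8 libraries, the most of any region in the cluster. In equal-number lists 3 Ppara-null libraries and 1 Ppara-intact library called it, the opposite order, as the cut dropped Ppara-intact peaks only. The region at 83999178 to 83999725, between Acot2 and Acot1, read 25.1 and 72.0 in wild type, 70.2 and 63.6 in Cpt2 knockout, and 12.2 in Ppara knockout 1. The other 3 Ppara-null libraries had no peak there.

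Acot1 (gene ID 26897, 84009502 to 84017670), the cytosolic enzyme, had the strongest peak of the cluster at its start, in the region at 84009249 to 84009812. The −log10 p was 23.8 and 98.3 in wild type and 119 and 58.5 in Cpt2 knockout, with no peak in the 4 Ppara-null libraries. In their own lists these peaks stood at percentiles 41.3, 85.8, 90.9 and 75.1 by −log10 p. Both the lowest value and the value next to the highest came from wild type, so wild type and Cpt2 knockout overlapped. The 4 summits fell within 38 bp of each other, 45 to 7 bp before the start, inside the printed upstream sequence. A second intact-only region, inside the gene at 84011530 to 84011887, had lower values of 30.1 and 19.0 in wild type and 25.3 and 11.3 in Cpt2 knockout, and 1 of the 4 equal-number lists with intact Ppara kept it.

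Downstream of Acot1, the region at 84020465 to 84020958 read 52.8 and 59.9 in wild type, 69.2 and 33.0 in Cpt2 knockout and 14.9 in Ppara knockout 1, and no double knockout library called it. The region at 84023305 to 84023645 was the 1 region of the cluster called in both Cpt2 knockouts and in neither wild type, with a −log10 p of 13.6 and 20.4. No equal-number list kept it. The last region assigned to Acot1, 890 bp before the gene at 84008405 to 84008612, was called in wild type 2 alone, at 18.8.

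Acot4 (gene ID 171282, 84037254 to 84044723) encodes a peroxisomal enzyme known to act on succinyl-CoA and had the most regions, 7. Its start region at 84038210 to 84038554 read 38.4 and 54.1 in wild type and 72.7 and 40.3 in Cpt2 knockout. It was also called in Ppara knockout 1, at 20.6, and in double knockout 1, at 18.04. The summits lay from 6 bp before to 26 bp after the start. Those of wild type 1, wild type 2 and double knockout 1, at -4, -6 and -5, lay within the match in capitals above. The region 592 bp past the start at 84038789 to 84039153 read 15.2 and 29.9 in wild type, 25.7 and 21.3 in Cpt2 knockout and 10.9 in Ppara knockout 1.

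Inside Acot4, the region at 84042274 to 84042650 was the 1 region of the cluster called in both double knockouts and in neither Ppara knockout. Its −log10 p was 34.4 and 65.6 in wild type, 49.2 and 59.5 in Cpt2 knockout and 23.3 and 17.9 in double knockout. It was also the 1 cluster region called in double knockout 2, and its summits lay within 13 bp of each other in the 4 Ppara-intact libraries and 51 bp apart in the double knockouts. Upstream of the gene were both intact-only regions of Acot4. That at 84032783 to 84033258 read 31.0 and 88.0 in wild type and 36.3 and 72.1 in Cpt2 knockout, and that at 84034302 to 84034623 read 28.3 and 28.03 in wild type and 38.7 and 33.9 in Cpt2 knockout. Wild type and Cpt2 knockout overlapped in the former, and in the latter both Cpt2 knockouts were above both wild types by −log10 p. By fold the genotypes overlapped in the latter too, with 5.762 and 4.759 in wild type and 5.611 and 5.603 in Cpt2 knockout. The remaining regions of Acot4 were called in 2 libraries (wild type 2 and Cpt2 knockout 1, at 25.7 and 24.4) and in Cpt2 knockout 1 alone, at 20.5.

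Acot3 (gene ID 171281, 84052144 to 84060400), a peroxisomal long-chain acyl-CoA thioesterase, had no region over its promoter window and no call in any Ppara-null library. The intact-only region 1072 bp before the gene, at 84050677 to 84051072, read 27.0 and 33.8 in wild type and 38.7 and 25.0 in Cpt2 knockout. The one inside the gene at 84053138 to 84053549 read 21.6 and 59.1 in wild type and 51.7 and 64.9 in Cpt2 knockout. Another region, at 84052552 to 84052883, was called in wild type 2, at 25.0, and in Cpt2 knockout 1, at 29.3.

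At Acot5 (gene ID 217698, 84069077 to 84076024), whose peroxisomal product prefers medium-chain acyl-CoAs, the intact-only region at 84064581 to 84065030 lay 4047 bp before the gene. It read 23.4 and 54.1 in wild type and 64.4 and 36.4 in Cpt2 knockout. The region 106 bp before the gene, at 84068657 to 84068971, was called in wild type 1 at 11.98, in Cpt2 knockout 1 at 23.5 and in Ppara knockout 1 at 16.65. This mixture of calls was shared by 14 regions in the series, and in equal-number lists Ppara knockout 1 alone kept the call. The Acot5 start region at 84069105 to 84069446 was called in Cpt2 knockout 2 alone, at 14.6. Acot6 (gene ID 217700, 84100654 to 84109783), the peroxisomal enzyme for branched-chain acyl-CoAs, had 1 region, at 84100703 to 84100940, which was also called in Cpt2 knockout 2 alone, at 16.65.

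Among the 13 regions called in all 4 Ppara-intact libraries, wild type 1 had the lowest −log10 p in 9 and Cpt2 knockout 1 the highest in 6. Wild type 1 also had the shortest list of the 4, with 28733 peaks against 35908 to 39296. Of these 13 regions, 6 had a call in a Ppara-null library, and in all 6 the Ppara-null −log10 p was below the lowest Ppara-intact one. The deposited fold overlapped at the Acot2 start (5.166 to 6.082 without Ppara, 5.882 to 6.967 with it) and the Acot4 start (5.825 to 6.441, 6.169 to 7.787). It also overlapped at 84038789 (4.369, 4.069 to 4.731) and 84042274 (5.912 to 6.32, 6.157 to 8.1). It was lower without Ppara at 83999178 (5, 7.848 to 13.94) and 84020465 (5.69, 7.028 to 11.97). The fold sets the tag pileup at the summit against a local background, both solved below. The pileup was lower without Ppara at all 6. It was 27 to 31 tags without and 33 to 70 with Ppara at the Acot2 start, and 35 to 37 and 73 to 132 at the Acot4 start. At 84038789 it was 26 and 44 to 80, and at 84042274 34 to 44 and 67 to 125. At 83999178 it was 25 and 39 to 86, and at 84020465 28 and 60 to 95. The −log10 p, fold and pileup values come from lists made separately and were not tested across libraries. In bulk liver, fewer cells of a type with an open region and less opening per cell cannot be told apart.

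Comparisons of genotypes in pairs share libraries, so they are not independent of each other. For Ppara knockout against wild type, 8 of 21 regions (38.1%) were called only in wild type, against 13.6% of all regions, and 0 only in the knockout (0.46% of all). In equal-number lists these counts were 5 and 1, the 1 being the Acot2 start region, against 3.44% and 2.38% of all regions. For double knockout against wild type, 10 (47.6%) were called only in wild type, against 12.9% of all, and 0 only in double knockout (1.2% of all). In equal-number lists 5 were called only in wild type, against 3.35% of all. For double knockout against Cpt2 knockout, 11 (52.4%) were called only in Cpt2 knockout, against 20.4% of all, and 0 only in double knockout (0.597% of all). In equal-number lists 6 were called only in Cpt2 knockout, against 2.99% of all.

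Loss of Cpt2 separated few regions of the cluster. With Ppara intact, 1 region of 21 (4.76%) was called only in Cpt2 knockout, against 3.63% of all regions, and 0 only in wild type (0.512% of all). The count only in Cpt2 knockout was 3 without Cpt2 knockout 1 and 2 without Cpt2 knockout 2, where the shares of all regions were 9.83% and 11.7%. Without wild type 1, each genotype had 1 region that the other lacked, against 5.0% of all regions for Cpt2 knockout and 5.37% for wild type. In mice lacking Ppara, 1 (4.76%) was called only in double knockout, against 2.33% of all, and 0 only in Ppara knockout (1.45% of all). Without Ppara knockout 2 the latter comparison turned, to 1 region only in double knockout and 4 only in Ppara knockout, and the shares of all regions turned with it, to 3.81% and 5.41%. Over both backgrounds, 0 of 21 regions followed Cpt2 status in either direction, against 0.0968% and 0.00605% of all regions. These shares were near those of all regions. The replicates of a genotype differed in 4 regions of the cluster in wild type, 6 in Cpt2 knockout, 5 in Ppara knockout and 2 in double knockout. Of all regions, 17.8% to 25.3% differed between the replicates of a genotype.

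MACS2, the peak caller, scores a summit by its tag pileup against a local background, the number of tags expected from the surrounding DNA. The deposited fold and −log10 p together fix both numbers, and they were solved for all 75 peaks of the cluster. Among these and every 20th peak of each list, the lowest background solved was 4.097 tags in all 8 lists, here termed the floor. At the Acot1 start the pileup was 47 and 142 tags in wild type and 158 and 99 in Cpt2 knockout, over backgrounds of 6.88 and 12.02 and of 11.5 and 11.0 tags. The background was thus itself 1.68 to 2.93 times the floor of its list. None of the 8 libraries is a control. Without a control, the background is taken from the library's own tags and can include the peak itself and neighbouring peaks. A background is therefore not a measure independent of the calls around it.

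Of the 7 regions with a Ppara-null peak, 6 had every Ppara-null background below the lowest Ppara-intact one. The exception was the region between Acot2 and Acot1, with 4.2 tags in Ppara knockout 1 against 4.097 and 5.24 in wild type and 5.32 and 6.64 in Cpt2 knockout. At the Acot4 start it was 9.8 and 15.8 tags in wild type, 16.1 and 12.9 in Cpt2 knockout, 4.9 in Ppara knockout 1 and 5.18 in double knockout 1. At the region inside Acot4 it was 9.34 and 16.3 tags in wild type, 16.4 and 11.8 in Cpt2 knockout, and 6.12 and 4.92 in double knockout. At neither region did the Ppara-intact and Ppara-null values overlap. Over all cluster peaks the median was 7.01 and 12.1 tags in wild type and 11.0 and 10.1 in Cpt2 knockout, against medians of 7.18, 7.58, 7.42 and 7.82 over the same lists, so that wild type 1 was at the level of its list and the other 3 libraries above it. It was 4.15 and 4.42 tags in Ppara knockout and 5.18 and 4.92 in double knockout, against 6.06 to 6.34 over those lists, but these values rest on 6, 1, 3 and 1 peaks.

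**Figure D4:**
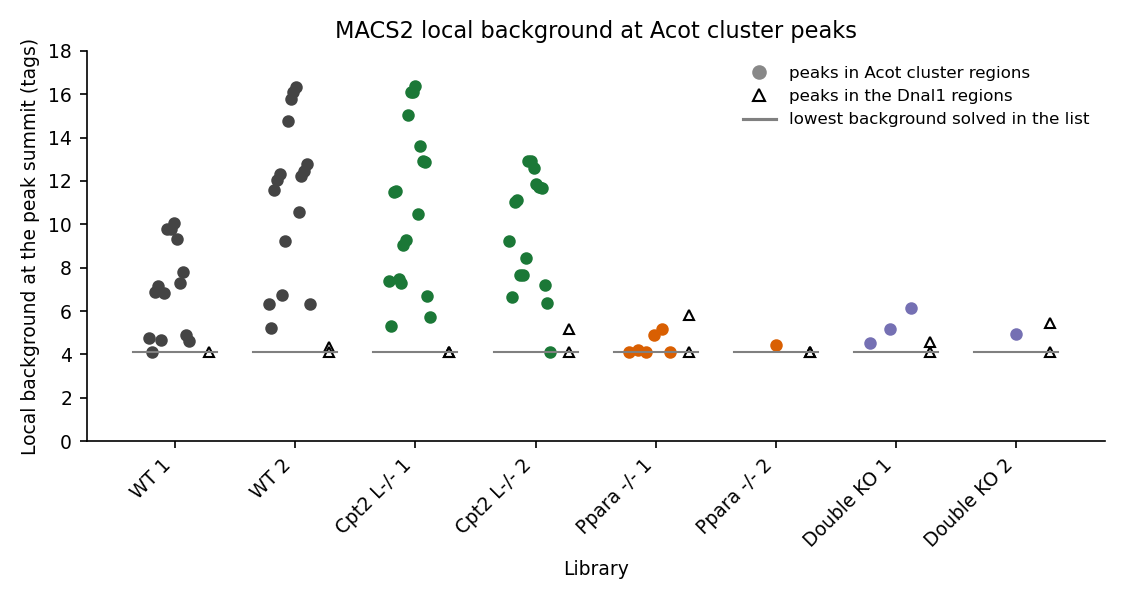
Local background in tags, solved from the deposited fold and −log10 p, at each peak of the cluster (points, coloured by genotype) and at the peaks of Dnal1, the next gene (triangles), in each library. Grey lines mark the lowest background solved in each list, 4.097 tags. The highest point of each Ppara-intact library lies between 10.1 and 16.4 tags, and all 11 points of the Ppara-null libraries lie at or below 6.12.

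The background was not even along the cluster. In Ppara-intact libraries it was 9.76 to 15.04 tags at the region 3.92 kb before the Acot4 start, 4.097 to 6.64 at the region between Acot2 and Acot1, 4.88 to 7.2 at the intact-only region before Acot5 and 4.097 at the Acot6 region. Dnal1, a dynein light chain gene, lies beyond Acot6, and its start region at 84114126 to 84114710 was called in all 8 libraries with a background of 4.097 to 4.36 tags. Its second region, at 84128597 to 84129029, was called in all 4 Ppara-null and 3 Ppara-intact libraries. On the other side, the nearest region that the rule leaves out lay inside Heatr4 at 83982313 to 83982611 and was called in 3 Ppara-intact libraries only. Lower backgrounds without Ppara were also seen elsewhere: at the region at 84193606 to 84194315 that overlaps Mideas and Gm31513, called in all 8 libraries, it was 14.4 to 17.9 tags with and 9.66 to 11.9 tags without Ppara. At the second Dnal1 region the 2 sides overlapped, at 4.097 to 5.16 tags with and 4.097 to 5.8 without Ppara. Over whole lists, the 90th percentile of the background was 15.25 to 16.72 tags with and 9.98 to 11.56 without Ppara.

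Counts by gene list set the cluster beside its surroundings. The 3 protein-coding genes on each side (Heatr4, Riox1, Numb, Dnal1, Pnma1 and Mideas) had 26 regions, of which 2 (7.69%) were intact-only and 3 (11.5%) were called in all 8 libraries. The 10 acyl-CoA thioesterase genes outside the cluster had 34 regions, of which 2 (5.88%) were intact-only, both inside Acot11, and 10 (29.4%) were called in all 8. They include Acot8 and Acot12, of the peroxisome and the cytosol. The 30 genes of fatty acid oxidation and known Ppara targets had 153 regions, of which 26 (17.0%) were intact-only, 1 showed the reverse and 28 (18.3%) were called in all 8. The median region of the cluster was called in 4 Ppara-intact and 0 Ppara-null libraries, as was that of the 30 genes of fatty acid oxidation and Ppara targets, and that of all regions in 3 and 1. Other regions of chromosome 12 with the intact-only pattern lay nearest at 83972068 to 83972513 inside Heatr4, at 83904902 to 83905243 inside Numb and at 83424343 to 83424848 inside Dpf3.

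The tissue label was checked on marker genes with a called region inside or within 1 kb of the gene. Of 7 hepatocyte markers, 7 had a call in each Ppara-intact library, over 20 to 27 regions, and 6 or 7 in each Ppara-null library, over 18 to 22 regions. Of 5 liver endothelial markers, 3 to 5 had a call with Ppara intact, over 9 to 20 regions, and 2 in each Ppara-null library, over 3 to 5 regions. Stellate cell markers had 1 or 2 of 5 called and cholangiocyte markers 2 of 5 with Ppara intact, against 0 or 1 of 5 for each without Ppara, and Kupffer cell markers 0 or 1 and 0 of 5. No consensus region was near the Kupffer cell markers Clec4f, Adgre1, Cd5l and Vsig4, the stellate cell markers Dcn, Des and Colec11, or the cholangiocyte markers Krt19, Krt7 and Spp1. Of 5 genes not expected in liver, 1 or 2 had a call on either side. The endothelial calls were thus fewer in every Ppara-null library, while the calls near hepatocyte markers overlapped. These counts use all deposited peaks, and the share of all consensus regions called also fell, from 69.4% with to 38.9% without Ppara. Marker counts for equal-number lists are not given, and the part of the marker calls in the cluster's result was not tested.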

How the data were processed

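ATAC-seq was run on 8 liver libraries, 2 for each of 4 genotypes. Reads were aligned with BWA and peaks called with MACS2 2.1.0 on mm10, per the submitters' processing notes. Each library has its own list, per the peak names; how duplicates and the cut-site offset were treated is not given in the sources used here. The authors deposited for each peak a score, the fold of summit pileup over local background, and the −log10 p and −log10 q. The score (10 times the −log10 p, rounded down) was not used. A deposited table gives positions of consensus regions, identical to the merged union of the 8 lists (49587 of 49587 regions).

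Regions were assigned to the nearest of 21900 protein-coding genes of RefSeq (GRCm38.p6), which also gave promoter sequences. The files hold no counts or signal per region, so no model was fitted and no p is given. The number of reads per library is unknown. The floor of the solved background, 4.097 tags, was the same in all 8 lists, and whether the lists rest on equal numbers of tags was not tested. Pileup and local background were solved from fold and −log10 p, taking fold as (pileup + 1) over (background + 1). List medians and 90th percentiles of the background used every 20th peak with a −log10 p under 300. The procedure was tested on simulated data. The text names every region assigned to a member. Alternatives were equal-number lists, a −log10 q of at least 20, 50% cover, a limit of 10 kb, the peak with the largest overlap, and leaving out each library. The members and lists were chosen with earlier results of these data known. Alternatives for single regions and the solved backgrounds were chosen after seeing the data. Software was Python 3.11.15, NumPy 2.4.6, SciPy 1.17.1, pandas 2.3.3 and matplotlib 3.10.9.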

Additional observations from a re-analysis of the deposited data

How the results depend on the processing

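No paired analysis was possible because the labels give no link between libraries of different genotypes. The counts rest on whether a peak was listed in each library and come from no test. In equal-number lists, which by construction keep fewer peaks, 3 regions separated Ppara status, 5 separated double knockout from wild type, 6 separated it from Cpt2 knockout, and 0 separated Cpt2 knockout from wild type. The difference in regions called per library, Ppara-null minus Ppara-intact, was -7 there and -13.25 with all peaks. In equal-number lists the Acot2 start region was called in 2 more Ppara-null than Ppara-intact libraries, and the region 106 bp before Acot5 in 1 more, both reversed. At both regions the cut to 18132 peaks dropped Ppara-intact peaks only. It shortened the Ppara-intact lists, of 28733 to 39296 peaks, more than the Ppara-null lists, of 18132 to 22715. At the Acot2 start the highest −log10 p without Ppara, 16.65, was below the lowest with it, 17.38. Before Acot5 the dropped peaks read 11.98 and 23.5, and the kept one 16.65. Any further cause was not tested. With only peaks of −log10 q 20 or more, 0 regions separated Cpt2 knockout from wild type or double knockout from Ppara knockout. At this cutoff, 2.21% of all regions separated toward Cpt2 knockout and 0.159% toward wild type. The share was 1.85% toward double knockout and 0.692% toward Ppara knockout. For Cpt2 knockout against wild type, equal-number lists gave 0.918% and 0.815% of all regions. Among 21 regions, a count of 0 at such low shares does not set the cluster apart from all regions. Counts can only stay or rise when 1 library is left out, and the shares of all regions rose too. Leaving out each in turn gave 7 to 10 separated regions by Ppara status (intact-only share of all regions 7.22% to 11.8%). For Ppara knockout against wild type it gave 8 to 12 (only wild type 17.4% to 29.8%). It gave 10 to 13 between double knockout and wild type (14.9% to 29.6%), and 11 to 15 between double knockout and Cpt2 knockout (22.8% to 34.5%). For Cpt2 knockout against wild type the count was 1 to 3 (only Cpt2 knockout at least 5.0% of all regions, against 3.63% with all libraries). For double knockout against Ppara knockout it was 1 to 5. There, 3.81% to 8.48% of all regions were only in double knockout and 2.13% to 5.41% only in Ppara knockout. By Cpt2 status it was 0, where at most 0.29% of all regions separated in either direction. The difference per library was -14.3 to -12.6. Without Ppara knockout 2, the 5 regions of double knockout against Ppara knockout ran the other way, 4 to 1. A limit of 10 kb and 50% cover left each of these counts within 1.5 times, and the peak with the largest overlap was the strongest one in all 75 cases.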
